A study of Caenorhabditis elegans with 12 samples.

Results

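The cytosolic chaperonin CCT, also called TRiC, is built in *Caenorhabditis elegans* from the products of 8 genes, *cct-1* to *cct-8*. The members were taken by gene symbol from the deposited table of read counts. All 8 were found among its 46934 genes, and all 8 were among the 17946 genes with enough counts to be tested.

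The complex is a double ring in which each ring holds every subunit a single time. Unfolded proteins enter its cavity and are folded there in cycles of ATP binding and hydrolysis, and actin and tubulin are its best known clients. Prefoldin hands such clients to the ring. In *C. elegans* the subunits are needed for microtubule function and for the microvilli of the intestine, and loss of CCT disturbs embryonic cell division.

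The libraries came from whole animals on day 1 of adulthood, raised at 20 °C on *E. coli* OP50. Wild-type animals (strain N2) and *hsf-1*(*sy441*) mutants (strain TTV450) were either left untreated or exposed to 35 °C for 30 min and allowed 1 h of recovery at 20 °C. There were 4 groups of 3 libraries, 12 in all. *hsf-1* encodes the heat shock transcription factor, and the product of the *sy441* allele is thought to be without its activation domain, so that a shortened protein remains. The strain was outcrossed 6 times and stands for a single mutant line. Poly-A RNA of all tissues was sequenced together, including the germ line and the embryos carried by the mother. In such bulk RNA, fewer cells of a type and less RNA per cell cannot be told apart. The titles call the replicates biological without saying whether they were separate cultures, so a p-value here reflects only how far these libraries spread, part of which may be technical.

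Total counts ranged from 68188334 to 109248499 per library. Levels are given in CPM, read counts scaled to library size with factors from the trimmed mean of M-values (TMM). Differences were tested with edgeR's quasi-likelihood F test in a single fit of all 12 libraries, and a gene was called at a Benjamini-Hochberg adjusted p under 0.05. *hsf-1* itself was read at 154, 146 and 67.6 CPM in N2 and at 83.4, 109.04 and 86.4 CPM in the mutants at 20 °C, and the groups overlapped (log2 fold change -0.40, edgeR adjusted p = 0.44). The *sy441* change lies within a transcribed gene, so this level does not check the labels. After heat shock *hsp-16.2*, which encodes a small heat shock protein, rose in N2 by 6.75 on the log2 scale (edgeR adjusted p = 2.18e-05). It rose in the mutants by 6.24 (edgeR adjusted p = 0.000122).

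A library that bears on every result below is N2 control replicate 3. Its summed levels of oocyte markers (2559 CPM against 7276 and 6399 in the other N2 controls), germ line markers (1135 against 2499 and 2380.0) and intestine markers (4156 against 14863 and 15538) were the lowest of its group. Gene by gene, 6 of 6 oocyte, 5 of 6 germ line and 5 of 6 intestine markers were the lowest of its group there, while 4 of 4 neuron markers were the highest. N2 heat shock replicate 1 had the lowest sums of its own group (3896, 1501 and 7949 CPM) and the same gene counts in all 4 lists. Embryo markers were mixed. Their sum was low in both libraries (63.0 and 117 CPM) through *skn-1*, which made up 90.1% and 91.4% of it, while 4 of the 6 tested genes, *pes-10*, *end-1*, *sdz-1* and *sdz-28*, were the highest of their group. These 4 genes were read at only 0.229 to 4.54 CPM in the 2 libraries. The embryo markers *med-1* and *tbx-37* had too few counts to be tested.

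Replicate 1 of each mutant group stood apart in other ways. Ribosomal RNA genes took 7.39% and 7.24% of the counts of these libraries, against 0.975% to 4.04% in the 10 others. Intestine markers summed to 43398 CPM in the control library (19675 and 18251 in the other replicates) and to 29775 CPM in the heat shock library (20145 and 17913). These libraries also had the lowest summed CCT level of their groups. The part of these shifts in the results was not tested, and counts of calls are also given below without these libraries.

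The 8 genes are spread over 4 chromosomes. On the WBcel235 build, *cct-1* (WBGene00000377, from 8185443 to 8187601), *cct-2* (WBGene00000378, from 8927741 to 8929815), *cct-3* (WBGene00018782, from 2233540 to 2243539) and *cct-4* (WBGene00000379, from 8283667 to 8285711) lie on the plus strand of chromosome II. Chromosome III carries *cct-5* (WBGene00000380, from 4499188 to 4508114) and *cct-6* (WBGene00000381, from 5853530 to 5855687) on the minus strand. *cct-7* (WBGene00020391) lies on the plus strand of chromosome V from 1872246 to 1875505, and *cct-8* (WBGene00021934) on the minus strand of chromosome IV from 1087108 to 1093920. The genes have 4 to 8 exon blocks. Their coding lengths are alike, from 1587 bases in *cct-2* to 1647 in *cct-1*, while their spans differ from 2045 bases in *cct-4* to 10000 in *cct-3*. *cct-1* overlaps *T05C12.8* on the other strand by 117 bases, and *cct-7* overlaps *zig-11* by 28 bases. The strand setting of the counts is not given, but *T05C12.8* stayed between 0.277 and 0.660 CPM in all 12 libraries and *zig-11* between 22.2 and 80.0 CPM.

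All subunits were strongly expressed. A subunit had between 12590 and 103507 counts in a library, so that counting error was at most 0.891% of a value and the spread between replicates was the limit. Together the 8 genes took 0.255% to 0.477% of the counts of a library. Per kilobase of exon, the highest mean over the 12 libraries was that of *cct-5*, at 363 CPM per kb. It was followed by *cct-1* (285 CPM per kb), *cct-4* (282), *cct-6* (224), *cct-2* (193), *cct-7* (143), *cct-3* (133) and *cct-8* (122.5). Although the ring holds equal numbers of the subunits, their mRNA levels per length thus spanned a range from 122.5 to 363 CPM per kb.

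Some neighbours in this order were separated in every library and others were not. *cct-5* was above *cct-1*, *cct-4* above *cct-6* and *cct-2* above *cct-7* in 12 of 12 libraries, and *cct-6* was above *cct-2* in 11. The means of *cct-1* and *cct-4* differed by a ratio of 1.013, and *cct-1* was the higher in 9 of 12 libraries. *cct-7* was above *cct-3* in 10 libraries, and *cct-3* above *cct-8* in only 6. With coding length in place of exon length, *cct-3* and *cct-7* exchanged their ranks and the other 6 kept theirs.

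**Figure D1:**
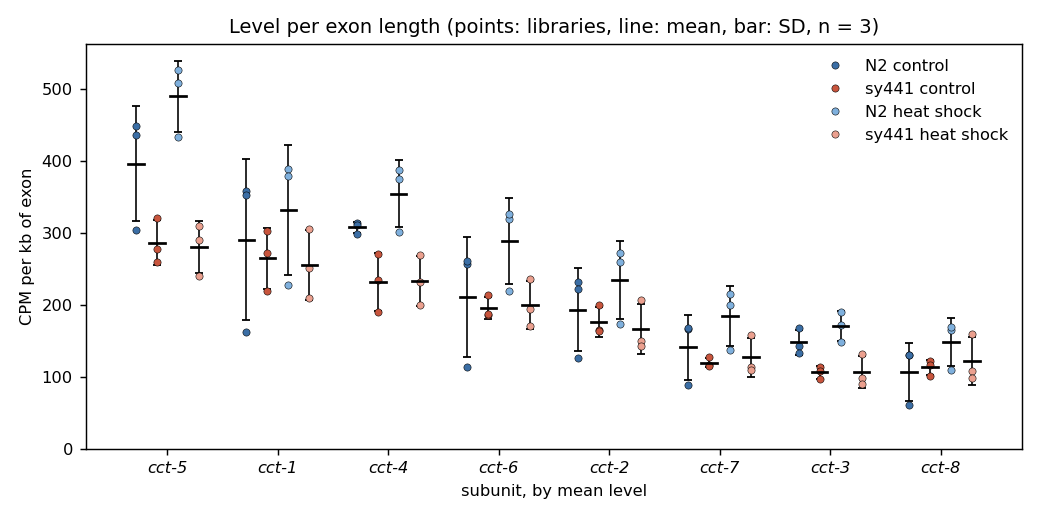
Level of each subunit in CPM per kb of exon (y axis), with subunits on the x axis in order of their mean over all libraries. Points are libraries, coloured by group, lines are group means and bars are the SD (n = 3). *cct-5* stands highest with a mean of 363 CPM per kb and *cct-8* lowest with 122.5.

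Across the genotypes, *cct-3*, *cct-4* and *cct-5* had lower levels in the mutants than in N2 when both treatments were averaged, 6 libraries against 6. No subunit was higher. The share of all tested genes called lower in this comparison was 5.34%, with 15.2% higher and 20.5% in either direction. DESeq2 called the same 3 subunits, where it called 9.01% of genes lower. Among the 2519 genes with a mean of at least 100 CPM, a level that all 8 subunits exceed, 8.85% were called lower. All 8 log2 fold changes were negative, with a median of -0.35, while the median of all tested genes was 0.086.

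*cct-5*, the most abundant subunit, had the largest difference. In N2 it was at 840.2, 865 and 587 CPM at 20 °C and at 837, 1015 and 982 CPM after heat shock. In the mutants it was at 502, 620.2 and 536 CPM at 20 °C and at 464, 599 and 559 CPM after heat shock. N2 control replicate 3 was the only wild-type library below a mutant library, and the other 5 were above all 6 mutant libraries. The mean fell from 854 ± 151 CPM in N2 to 547 ± 58.5 CPM in the mutants (SD, n = 6), a log2 fold change of -0.64 (SE 0.15, edgeR adjusted p = 0.0102).

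For *cct-3* the genotypes did not overlap. Its levels in N2 were 371, 347 and 436 CPM at 20 °C and 386, 449 and 496 CPM after heat shock. The mutants had 297, 282 and 251 CPM at 20 °C and 255, 344 and 233 CPM after heat shock. Here N2 control replicate 3 was the highest of the untreated libraries, where it was the lowest for 7 of the other genes of the complex in its group. The N2 mean was 414 ± 55.9 CPM and the mutant mean 277 ± 40.2 CPM (SD, n = 6), with a log2 fold change of -0.58 (SE 0.14, edgeR adjusted p = 0.0142).

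*cct-4* was likewise separated by genotype. N2 had 581, 577 and 554 CPM at 20 °C and 558, 695 and 719 CPM after heat shock, against 353, 502 and 435 CPM and 369.7, 498 and 428 CPM in the mutants. The log2 fold change was -0.51 (SE 0.14, edgeR adjusted p = 0.0244), from 614 ± 73.1 to 431 ± 62.3 CPM (SD, n = 6). A lack of overlap between the genotypes in this direction was seen for 3.33% of all tested genes. This call was the least steady of the 3. With the scaling of all 12 libraries kept, it was lost in 6 of the 12 fits that left out a single library (edgeR adjusted p from 0.0147 to 0.0637), while *cct-3* (0.00959 to 0.0427) and *cct-5* (0.00138 to 0.0309) were called in all 12.

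**Figure D2:**
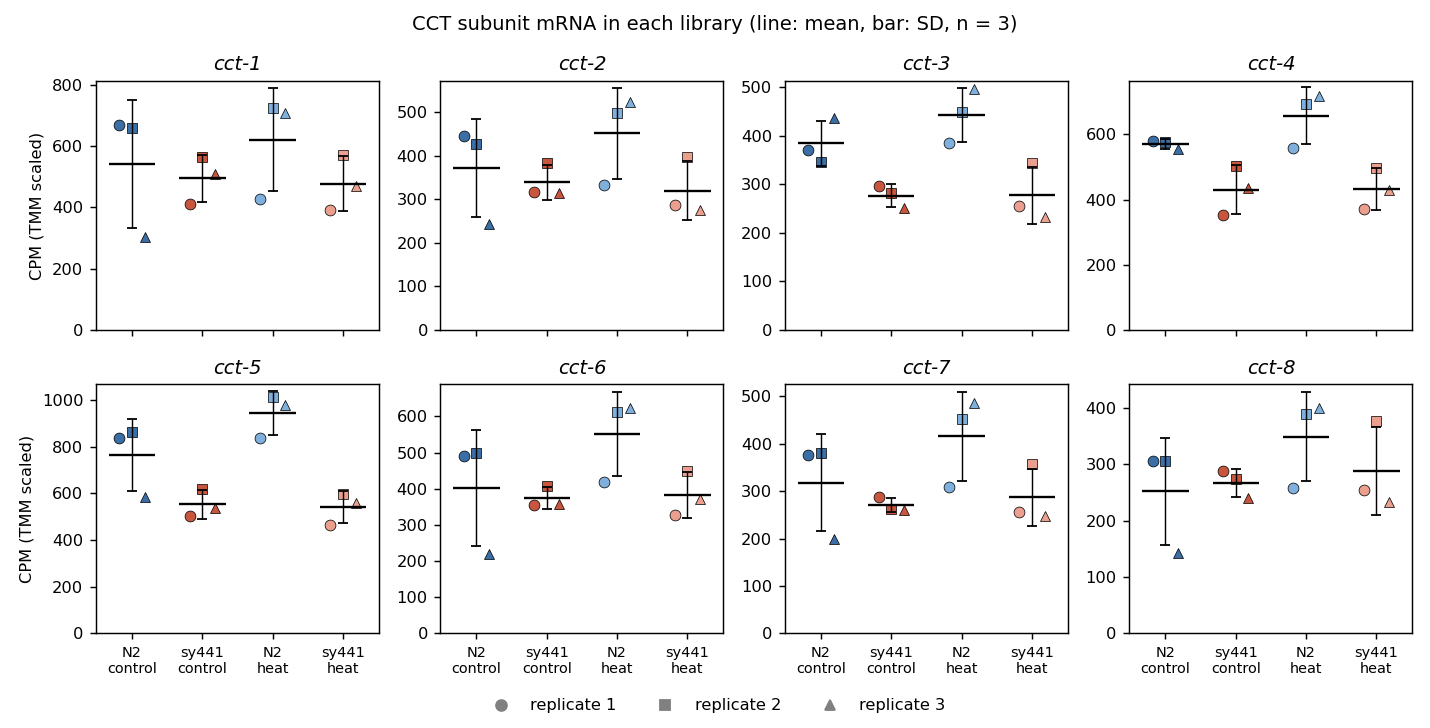
CPM of each subunit (y axis, TMM scaled, from 0) in the 12 libraries, by group on the x axis. Marker shape gives the replicate number, horizontal lines are means and bars are the SD (n = 3). N2 control replicate 3 (dark blue triangle) lies at 142.5 CPM for *cct-8* and 218 CPM for *cct-6*, but at 436 CPM for *cct-3*, the highest of its group.

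For *cct-1*, *cct-2*, *cct-6* and *cct-7*, N2 control replicate 3 was below every mutant library, which also held for *cct-8*. *cct-1* was at 668, 657 and 302 CPM in N2 and at 409.9, 564 and 507 CPM in the mutants at 20 °C. After heat shock it was at 426, 725 and 708 CPM against 390.2, 571 and 470.1 CPM. For *cct-2* the values were 447, 426 and 244 CPM against 317, 385 and 315 CPM at 20 °C, and 333, 499.9 and 524 CPM against 288, 398 and 275 CPM after heat shock. *cct-6* was read at 491, 498 and 218 CPM in N2 and 355, 408 and 358 CPM in the mutants at 20 °C, and at 419, 611 and 624 CPM against 326, 450.4 and 370.3 CPM after heat shock. For *cct-1*, *cct-2* and *cct-6*, N2 control replicates 1 and 2 and N2 heat shock replicates 2 and 3 were above all 6 mutant libraries. The same held for *cct-7*, with 375, 379.9 and 199 CPM against 287, 263 and 260.1 CPM at 20 °C and 309, 452 and 486 CPM against 257, 357 and 247 CPM after heat shock.

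The 5 subunits other than *cct-3*, *cct-4* and *cct-5* were not called in this comparison. *cct-7* had a log2 fold change of -0.39 (95% interval from -0.79 to 0.02), *cct-6* of -0.32 (from -0.76 to 0.12), *cct-2* of -0.32 (from -0.72 to 0.09) and *cct-1* of -0.26 (from -0.72 to 0.21). *cct-8* showed the smallest difference, -0.10 (from -0.55 to 0.36). Its levels were 306, 306 and 142.5 CPM in N2 and 288, 273 and 239.9 CPM in the mutants at 20 °C, and 259, 389 and 399 CPM against 254, 377 and 233 CPM after heat shock. Only 2 of the 6 wild-type libraries were above the highest mutant library for *cct-8*, compared with 4 for *cct-1*, *cct-2*, *cct-6* and *cct-7*. All 5 intervals include a fall as large as that of *cct-4*, so a difference between called and uncalled subunits is not shown.

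The number of called subunits depended on N2 control replicate 3. Without that library and with the scaling kept, 5 subunits were lower, namely *cct-3* to *cct-7*, against 6.64% of all genes. With the scaling recomputed 6 were lower, *cct-2* to *cct-7*, against 7.89%. When N2 heat shock replicate 1 was left out as well, 7 were lower, all but *cct-8*, against 10.2%. These N2 libraries had the lowest summed CCT level of their groups, 2682 and 3526 CPM. Leaving them out widens the difference in the sum by construction, so the higher counts without them are no support for it. Without replicate 1 of both mutant groups 2 were lower, *cct-3* and *cct-5*, against 2.46%. The 3 called subunits were called with every library taken in turn as the reference of the TMM scaling. Over these references the share of all genes called lower ranged from 4.8% to 10.8%. The choice of reference moved all genes together: with N2 control replicate 3 as reference, the median of all genes was -0.082 in place of 0.086 and 52.1% of the called genes were higher in place of 73.9%. Relative to the median of all genes, the median of the subunits stayed between -0.45 and -0.42 with the 11 other references, and it was -0.44 with the reference used here, N2 heat shock replicate 3.

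At 20 °C alone, no subunit was called by edgeR. The groups were 3 libraries each, and 6.83% of all genes were called, 0.591% lower. *cct-3* (log2 fold change -0.47) had the smallest edgeR adjusted p, 0.166, and 2 subunits, *cct-3* and *cct-5* (-0.47), were under an unadjusted p of 0.05, as were 6.51% of all genes in this direction. DESeq2 also called 0 subunits, and 3.13% of all genes lower. For *cct-3* and *cct-4* (-0.41) all mutant libraries were below all wild-type libraries, as was the case for 8.87% of genes. The median over the 8 subunits was -0.19. With the scaling kept, leaving out N2 control replicate 3 gave -0.41, and leaving out replicate 1 or 2 of that group gave -0.04 and -0.06. Without N2 control replicate 3, *cct-5* was called, against 1.17% of all genes called lower (0.985% with the scaling kept). It was also the only subunit called when N2 heat shock replicate 1 was left out as well, against 3.17%. N2 control replicate 3 had the lowest summed CCT level of its group (2682 CPM), so leaving it out widens this difference by construction.

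After heat shock alone the differences were of larger size, but again none was called by edgeR, with 2.7% of all genes called and 0.379% called lower. *cct-5* (log2 fold change -0.81, 95% interval from -1.26 to -0.35) had an edgeR adjusted p of 0.0615, *cct-3* (-0.68) of 0.0949 and *cct-4* (-0.61) of 0.127. These 3 were under an unadjusted p of 0.05, as were 5.64% of genes in this direction. Their groups did not overlap, as for 11.1% of all genes. The median over the 8 subunits was -0.53, and no subunit was positive. DESeq2 called *cct-3*, *cct-4* and *cct-5* lower, where it called 1.54% of all genes lower. Without N2 control replicate 3, which is not in this comparison but enters the shared estimate of the spread, *cct-3* and *cct-5* were called with the scaling kept (0.996% of genes lower). With the scaling recomputed *cct-4* joined them (1.39%). Without N2 heat shock replicate 1 as well, *cct-2* to *cct-7* were called, 6 subunits, against 0.705% of genes. That library had the lowest summed CCT level of the heat-shocked N2 libraries (3526 CPM), so leaving it out widens this difference by construction. *cct-5* alone was called with edgeR's revised quasi-likelihood method (0.73% of genes lower) and in a fit of the 6 heat shock libraries only (0.579%).

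Heat shock itself gave no called change of a subunit in either genotype. In N2 all 8 log2 fold changes were positive, from 0.19 for *cct-1* to 0.47 for *cct-8*, but every 95% interval included 0 and the smallest edgeR adjusted p was 0.874. These directions rested in part on single libraries. With the scaling kept, the median of 0.29 became 0.15 without N2 control replicate 3, where *cct-1* was negative (-0.10), and 0.43 without N2 heat shock replicate 1. With the scaling recomputed, *cct-1* was also negative without N2 heat shock replicate 3 (-0.02). None was under an unadjusted p of 0.05, as were 5.34% of genes in this direction, and DESeq2 called 0, with 1.89% of genes higher. By edgeR 1% of all genes were called, with 0.78% higher. In the mutants the values lay between -0.08 and 0.11 and their sign changed with the library left out, from 8 negative values without heat shock replicate 2 to 8 positive values without control replicate 2 with the scaling kept. They had an edgeR adjusted p of 1 each, none under an unadjusted p of 0.05 and 0 called by DESeq2, and 0.568% of genes were called. Of all genes, 2.98% were higher and 3.84% lower at an unadjusted p under 0.05, and DESeq2 called 0.92% higher and 1.16% lower. The intervals allow changes of some size: for *cct-5* they ran from -0.14 to 0.75 in N2 and from -0.48 to 0.42 in the mutants. By contrast, 7 of 9 heat-inducible chaperone genes rose in N2 and 9 of 9 in the mutants, *hsp-70* by 5.97 and 4.85 on the log2 scale (edgeR adjusted p = 5.37e-05 and 0.000352).

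Whether the response to heat differed by genotype was tested by the interaction. All 8 interaction terms were negative, between -0.42 for *cct-6* and -0.20 for *cct-4*, but each had an edgeR adjusted p of 1, none was under an unadjusted p of 0.05 and DESeq2 called 0. Only 0.0111% of all genes were called, 1.94% were negative at an unadjusted p under 0.05, and DESeq2 called 0.152% negative. With the scaling kept, the median of -0.32 became -0.13 without N2 control replicate 3, where *cct-1* turned positive (0.05), and -0.46 without N2 heat shock replicate 1. With the scaling recomputed, *cct-3* turned positive without N2 heat shock replicate 3, and *cct-1* and *cct-4* without replicate 1 of the heat-shocked mutants. A genotype difference that is larger after heat shock than at 20 °C is therefore not shown. The comparisons share libraries, so their values are not independent.

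**Figure D3:**
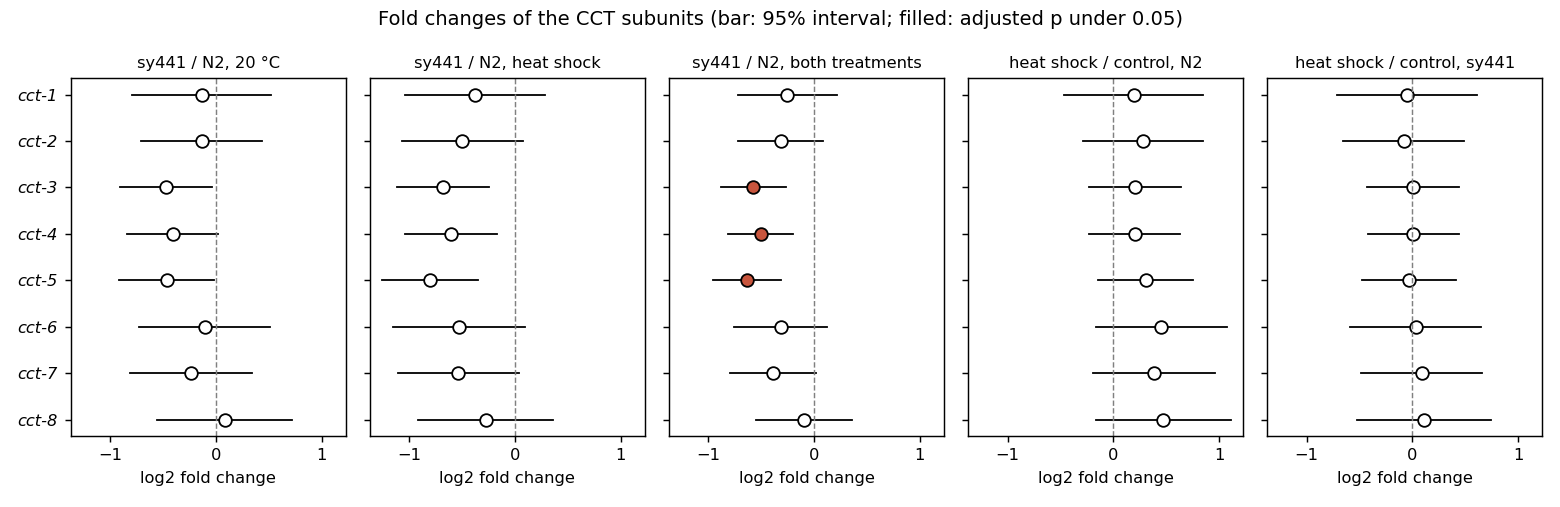
Log2 fold change of each subunit (x axis) in 5 comparisons (panels), with 95% intervals as bars. Filled points have an edgeR adjusted p under 0.05. The filled points are *cct-3*, *cct-4* and *cct-5* in the comparison of genotypes over both treatments, at -0.58, -0.51 and -0.64, and in the panels for heat shock every interval includes 0.

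The summed level of the complex showed the same order. In N2 it was 4079, 4057 and 2682 CPM at 20 °C and 3526, 4836 and 4938 CPM after heat shock. The mutants had 2810.3, 3298 and 2903 CPM at 20 °C and 2604, 3594 and 2815 CPM after heat shock. Of the N2 libraries, N2 control replicate 3 lay within the range of the mutants and so did N2 heat shock replicate 1, and the other 4 were above all mutant libraries.

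Subunit levels moved together across libraries, but not to the same degree. The correlation of log2 CPM of a subunit with the mean of the 7 others, over 12 libraries that share 4 groups, was highest for *cct-2* (r = 0.957) and *cct-7* (0.952) and lowest for *cct-3* (0.582). For comparison, 2426 of 7596 other genes with a mean of at least 10 CPM had a correlation with the complex at least as high as that of *cct-3*, and the median of these genes was 0.338. The low values of *cct-3* rested on N2 control replicate 3: its correlation with *cct-8* was 0.268 over 12 libraries and 0.836 over the 11 others, and that with *cct-1* was 0.294 and 0.672.

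That library had another balance of subunits. *cct-3* made up 12.7% of the summed level per kb there, compared with 6.37% to 8.47% in the 11 other libraries, and *cct-4* 22.6% compared with 13.8% to 17.2%. In turn *cct-6* (8.64% against 12.5% to 13.8%) and *cct-8* (4.57% against 6.27% to 8.99%) had smaller shares. *cct-5* was within the range of the others at 23.01%. The oocyte, germ line and intestine sums were low and the neuron markers high in the same library, and their part in this shift was not tested.

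**Figure D4:**
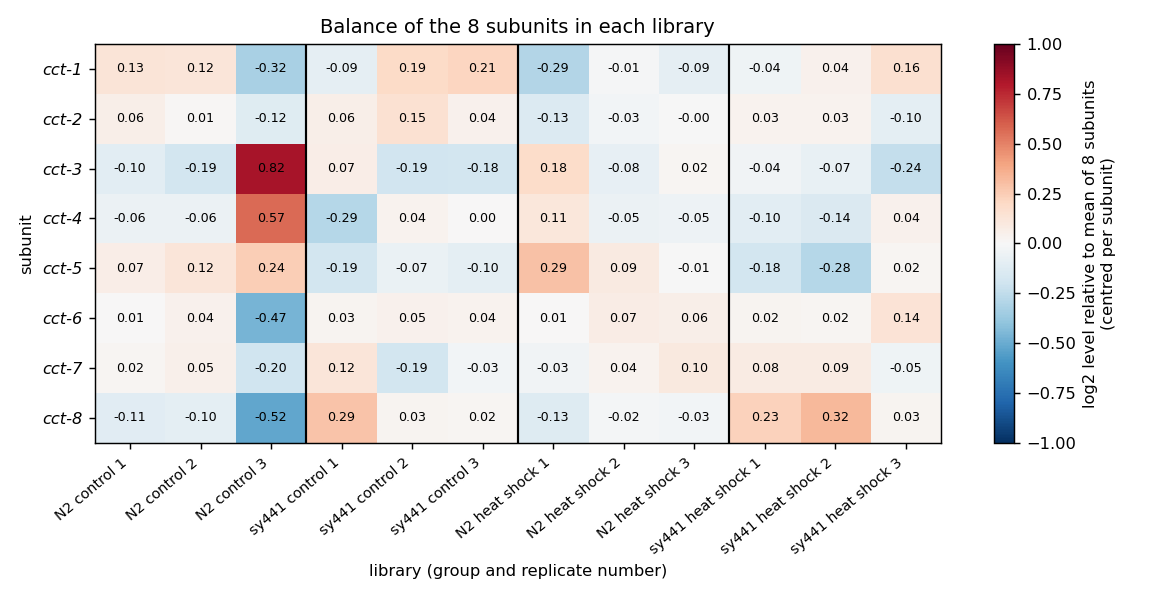
Log2 level of each subunit (rows) relative to the mean of all 8 in each library (columns), centred per subunit. Red is above and blue below the subunit's own average, and black lines separate the groups. N2 control replicate 3 stands apart with *cct-3* at 0.82 and *cct-4* at 0.57 above, and *cct-8* at -0.52 and *cct-6* at -0.47.

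The genes whose log2 CPM followed the mean of the standardized subunits most closely over the 12 libraries were *fitm-2* (r = 0.965), *R05F9.6* (0.961), *F54E12.2* (0.953), the mitochondrial ribosomal gene *mrps-18C* (0.949), the kinesin gene *klp-16* (0.946) and *lars-1* (0.945). *catp-8*, *F58G11.3*, *memi-1* and *fars-1* came next, with 0.943 to 0.938. *lars-1* and *fars-1* encode aminoacyl-tRNA synthetases. The list is not stable, since a ranking by Spearman's correlation shared 1 of the 10 genes, and a ranking on deviations from the group means shared 0.

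Partners and clients of the chaperonin did not all move in the same direction. Over both treatments, 5.34% of all tested genes were lower in the mutants and 15.2% higher. Of the 6 prefoldin subunits, 3 were lower in the mutants over both treatments, *pfd-6* (log2 fold change -1.14, edgeR adjusted p = 0.028), *pfd-5* (-0.77, 0.0388) and *pfd-3* (-0.40, 0.0217), with a median of -0.64. Prefoldin stood against the chaperonin in the libraries that stand apart. Its summed level was 1633 CPM in N2 control replicate 3 and 1697 CPM in N2 heat shock replicate 1, and between 673 and 793 CPM in the 4 other N2 libraries. The mutants were between 506 and 788 CPM. Without N2 control replicate 3 only *pfd-3* was called with the scaling kept, and without both libraries the median was -0.31.

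The HSP70 and HSP90 machinery, which acts on clients before and beside the chaperonin, was lower for 8 of 15 genes, against 5.34% of all genes. The median was -0.54. With a single library left out and the scaling kept, 7 to 12 genes were lower, against 2.45% to 6.64% of all genes. Without N2 control replicate 3 and N2 heat shock replicate 1 the count was 13 genes, against 10.2% of all genes. These libraries had the lowest sums of this list in their groups, 7303 and 11979 CPM, so leaving them out widens this difference by construction. Among the 8 genes were the HSP40 gene *dnj-13* (log2 fold change -1.19, edgeR adjusted p = 0.000223) and the nucleotide exchange factor gene *bag-1* (-0.93, 0.00349). The HSP90 co-chaperone genes *sti-1* (-0.94, 0.00329) and *ahsa-1* (-0.93, 0.000732) were also among them. Of the 3 genes listed for the mitochondrial chaperonin system, *Y22D7AL.10* was lower (-0.42, edgeR adjusted p = 0.047). Under other scalings 0 to 2 of the 3 genes were called. Of 31 proteasome genes 11 were lower, among them *pas-7* (-0.60) and *pbs-7* (-0.54). This count ranged from 5 to 15 under other scalings, where 4.8% to 10.8% of all genes were lower. It was 21 without the same N2 libraries (10.2% of all genes) and 1 without replicate 1 of both mutant groups (2.46%). The 2 N2 libraries had the lowest proteasome sums of their groups, 9649 and 10359 CPM, so leaving them out widens this difference by construction.

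Actin genes went the other way, in a comparison where 15.2% of all genes were called higher. Of 5 genes 4 were higher in the mutants, *act-4* (log2 fold change 1.06, edgeR adjusted p = 0.00057), the intestinal actin gene *act-5* (0.83, 0.00858), *act-1* (0.80, 0.0144) and *act-3* (0.61, 0.0224), and 2 to 4 were called under other scalings. Under these scalings 2103 to 3228 of all genes were called higher, and 2720 with the scaling used here. Without replicate 1 of both mutant groups only *act-4* was called. The share of all genes called higher in that fit is not given here, so this count lacks its background. Actin genes are near copies of each other and may share reads. Body wall muscle markers were higher for 3 of 4 genes and intestine markers for 4 of 6, with *act-5* in both this list and that of the actins. The part of these tissues in the actin levels was not tested. Of 16 tubulin genes, 2 were higher, *tbb-6* (3.21, edgeR adjusted p = 0.00593) and *tba-7* (1.43, 0.00487), and 14 were not called. That is near the 15.2% of all genes called higher. Genes listed with the tubulin folding cofactors were lower for 2 of 7, *evl-20* (-0.57, edgeR adjusted p = 0.026) and *tbcb-1* (-0.51, 0.0353). That count was 5 without N2 control replicate 3 and N2 heat shock replicate 1, against 10.2% of all genes lower. It was 0 without replicate 1 of both mutant groups, against 2.46%. Of 6 WD40 repeat proteins, a further class of clients, *mlst-8* was lower (-0.53, edgeR adjusted p = 0.00673). The median of the 6 was -0.046. The share of all genes called lower, for this list and for the cofactors, was 5.34%.

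Markers of the tissues that a whole animal holds were compared by the same contrast, in which 15.2% of all genes were higher and 5.34% lower. Sperm markers were higher in the mutants for 6 of 8 genes, with a summed level of 3.11 to 12.2 CPM in the N2 libraries and 37.1 to 81.7 CPM in the mutants. Germ line markers were lower for 1 of 6 genes, *him-3* (log2 fold change -0.40, edgeR adjusted p = 0.0334), and embryo markers for 1 of 6, *end-3* (-1.52, 0.0229). The level of *end-3* was low, with a mean of 0.254 CPM in the mutants and 0.726 CPM in N2. None of 6 oocyte and 4 neuron markers was called by edgeR. Without N2 control replicate 3 and with the scaling kept, 2 oocyte and 3 germ line markers were lower, against 6.64% of all genes. Without N2 heat shock replicate 1 as well, these counts were 4 and 3, against 10.2%. These libraries had the lowest oocyte and germ line sums of their groups, so leaving them out widens these differences by construction. The higher counts without them are no support for a difference. The part of the marker levels in the subunit levels was not tested.

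**Figure D5:**
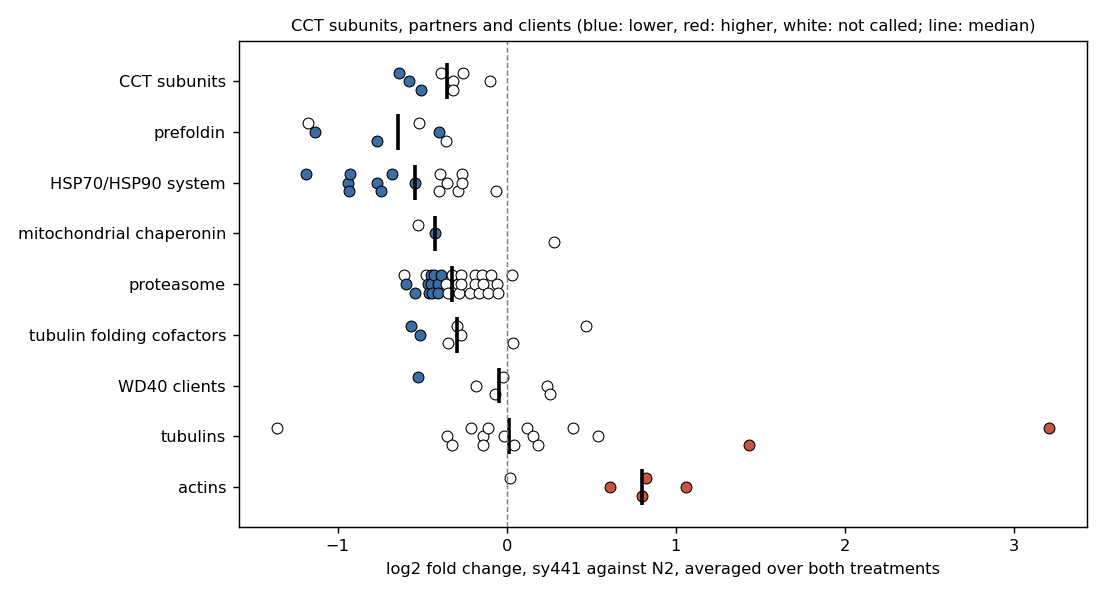
Log2 fold change of *hsf-1*(*sy441*) against N2 over both treatments (x axis) for the genes of 9 lists (y axis). Each point is a gene, blue where called lower, red where called higher and white where not called, and the vertical line is the list's median. The median was -0.35 for the CCT subunits, -0.64 for prefoldin and 0.80 for the actins.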

How the data were processed

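RNA of whole day 1 adults was measured in 12 libraries, 3 in each of 4 groups. The authors deposited raw read counts per gene for 46934 genes, not normalized. The submitters' processing notes name FastQC, HISAT2, HTSeq and edgeR and the build WBcel235. Tool versions, the annotation release, the strand setting and the handling of multi-mapped reads are not given in the sources used here. Columns marked C were read as the controls that the titles mark K. Total counts had a median of 79763950. Replicates differed by 15.28 to 270 times the sampling noise (median squared difference), so none is a duplicate.

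Genes with low counts were removed by filterByExpr (edgeR 4.0.16 in R 4.3.3), which kept 17946, and counts were scaled by TMM and fitted with 1 mean per group and robust estimation. Two-sided quasi-likelihood F tests were adjusted by the Benjamini-Hochberg method over all tested genes in each of 6 comparisons. Log2 CPM for correlations used a prior count of 2. Exon and coding lengths and positions came from the Ensembl annotation of WBcel235. The procedure was run on simulated counts, drawn for each gene on its own with a set genotype change in some genes. These counts held no marker shifts of whole libraries, so the run does not show how the procedure handles such shifts.

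Named are all 8 subunits, *hsf-1*, up to 4 called genes per list by adjusted p, and the 10 genes most like the subunits. Neighbouring genes were added after their values were seen. The members and lists were chosen with earlier results of these data known. Deviations of same-numbered replicates from their group means had correlations from -0.363 to 0.342. They exceeded 0.1 in all 3 pairs only between the mutant control and heat shock groups (0.342, 0.336 and 0.199). These groups may thus be paired by replicate number, a reading from the data and not the labels. The main tests did not use such a pairing. The replicate block set the same replicate effect for all 4 groups, so it was no paired test of the mutant groups. With that block, heat shock against control in the mutants also called 0 subunits.

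Alternatives were DESeq2 1.42.0, RLE factors, no filter, no robust estimation, the newer quasi-likelihood form, only the groups compared, the replicate block, coding length, Spearman's correlation, and leaving out libraries. TMM picks its reference library itself, and in 8 of the 12 fits without a library it moved to N2 control replicate 3. Fits that keep the scaling of all 12 libraries, and fits with each other library as reference, were therefore added after seeing the data.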

Additional observations from a re-analysis of the deposited data

How the results depend on the processing

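Subunits called lower over both treatments numbered 3 with DESeq2 (9.01% of all genes lower) and with RLE factors (6.7%). They numbered 3 with each other TMM reference, while the share of all genes called lower ranged from 4.8% to 10.8%. Without a library they numbered 2 to 6 (2.63% to 8.7%). With the scaling of all 12 libraries kept, this range was 2 to 5 (2.45% to 6.64%). The count was 6 without N2 control replicate 3 (7.89% of genes lower) and 5 with the scaling kept (6.64%). It was 7 without N2 control replicate 3 and N2 heat shock replicate 1 (10.2%), which had the lowest summed CCT levels of their groups. Without replicate 1 of both mutant groups the count was 2 (2.46%), and *cct-4* was lost (edgeR adjusted p = 0.0565). At 20 °C the count was 0 to 1 without a library (0.244% to 2.16% of genes lower). It was also 0 to 1 with the scaling kept (0.162% to 0.985%). Without N2 control replicate 3 and N2 heat shock replicate 1 it was 1 (3.17%). After heat shock it was 3 with DESeq2 (1.54%), 1 with the newer quasi-likelihood form (0.73%) and 1 with only the groups compared (0.579%). It was 1 with 7 of the 11 other TMM references (0.34% to 0.396%). Without a library it was 0 to 3 (0.125% to 1.39%), and 0 to 2 with the scaling kept (0.113% to 0.996%). Without the 2 N2 libraries it was 6 (0.705%). The ranges with recomputed scaling mix the missing library with a change of reference. At 20 °C the median of all genes was 0.134, and ranged from -0.124 to 0.295 in these fits, from 0.057 to 0.273 with the scaling kept and from -0.084 to 0.143 with other references. The 3 other comparisons had a count of 0 in every fit without a library.

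With the replicate block the counts were 0 in 5 comparisons and 3 over both treatments, as without it. Of 992 values of single subunits under the alternatives planned, 2 lost and 25 gained a call and none was reversed, and 37 values that were not called changed sign. Counting error was at most 0.891% of a subunit's level.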

Other observations

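Several subunit genes have a close downstream neighbour on the same strand. *mrpl-50* begins 25 bases after *cct-2* and was lower in *hsf-1*(*sy441*) mutants over both treatments (log2 fold change -0.54, edgeR adjusted p = 0.0154), while *cct-2* was not called. *csn-4* lies 94 bases after *cct-8* and was lower (-0.45, edgeR adjusted p = 0.0163), while *cct-8* was not called. *atf-7*, the gene after *cct-5*, was not called (-0.14, edgeR adjusted p = 0.681), and neither was *F54A3.2*, 102 bases after *cct-3* (-0.15, 0.753), nor *ddx-23*, 260 bases after *cct-6* (-0.30, 0.0979). Differences between the members of these pairs were not tested.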
